A study of Mus musculus with 12 samples.

Results

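The 26S proteasome is the protease that degrades most ubiquitin-tagged proteins in the cytosol and nucleus. Its 20S core particle is a barrel of alpha rings at the ends, which gate entry, and beta rings inside, which hold the protease sites. Its 19S regulatory particle has a base, whose ATPase ring unfolds the substrate, and a lid, which removes the ubiquitin chain. Haematopoietic stem cells are known for low protein synthesis and for their sensitivity to disturbed protein quality control.

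The subunit genes were taken from the array by symbol, as the probes named Psma, Psmb, Psmc or Psmd with a number. The immunoproteasome genes Psmb8, Psmb9 and Psmb10 were left out of that set and are counted with the related genes further on. This gave 68 probes for 36 genes, of 56605 probes for 37074 gene names on the array. All 36 genes could be tested. They are 7 alpha ring and 7 beta ring genes, the tissue-restricted core genes Psma8 and Psmb11, 6 ATPases and 3 other subunits of the base, 8 lid genes, and 3 assembly chaperones of the base that carry Psmd symbols. The data were made from stem cells sorted from the bone marrow of male mice. The marrow had first been enriched for Kit-bearing progenitors, and the sort was for the LSK SLAM phenotype, with 1 array for each of 3 mice in 4 groups.

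The first group had received POL5551, a peptide antagonist of the chemokine receptor CXCR4, by continuous infusion at 100 mg/kg per day for 2 weeks. A pair of groups had received G-CSF, a cytokine that drives neutrophil production and mobilizes stem cells, at 100 ug/kg per injection every 12 h for 5 days (9 injections) or for 2 days (4 injections). Sham-operated mice were the controls. The labels give neither strain nor age, name no operation for the G-CSF mice and no injections for the sham mice. Each array had 56605 probes other than controls, of which 75.3% to 85.6% were well above background. Precision is limited by having 3 arrays a group, and the labels give each array a mouse of its own. A level below is the log2 signal of the gene's brightest tested probe relative to the 75th percentile of its array, and a difference is a difference of group means of such levels with limma's standard error (SE). A gene was called where limma's p, adjusted over all 33212 genes tested, was under 0.05. Levels of different genes come from different probes and are not compared.

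The sort markers were present. Kit, Ly6a (Sca-1), Procr, Mecom and Hlf were well above background on all 12 arrays, and Slamf1 and Tek on all but 1 sham array each. Among the sham arrays, sham 1 stood apart from shams 2 and 3. The arrays also differed in the level of genes that blood cells do not use (olfactory, vomeronasal, taste and keratin-associated genes, called off-tissue genes here), whose median over 1537 probes was -5.17, -4.50 and -4.11 in POL5551 mice, -3.97, -3.87 and -3.25 in 5-day G-CSF mice, -2.41, -2.74 and -2.60 in 2-day G-CSF mice, and -1.61, -3.30 and -3.45 in sham mice. All 2-day mice were on 1 slide that held no other group, so slide and group cannot be told apart there. Mice are numbered here as the scanner files are. In 5 columns of the deposited table, those of POL5551 mice 1 to 3 and 5-day mice 2 and 3, the values are those of another mouse of the same group, so the numbers within these groups differ between the files. Results that rest on sham 1 are given with and without it.

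Most proteasome genes were highest after POL5551. Of the 36 genes, 32 had their highest group mean in the POL5551 mice, and the lowest mean was in 2-day G-CSF mice for 19 genes and in sham mice for 16. The median level of the 36 genes was 2.70, 2.92 and 2.60 on the POL5551 arrays, 2.39, 2.54 and 1.80 on the 5-day arrays, 1.51, 1.77 and 1.83 on the 2-day arrays, and 0.45, 2.24 and 2.30 on the sham arrays. The POL5551 arrays thus lay above every other array, the 2-day arrays lay together, and sham 1 lay below all. In bulk samples, fewer cells of a type and less RNA per cell cannot be told apart. The median of the members averaged 2.74 ± 0.16 in POL5551 mice, 2.25 ± 0.39 in 5-day mice, 1.70 ± 0.17 in 2-day mice and 1.66 ± 1.05 in sham mice (SD, n = 3 each). The off-tissue median averaged -4.59 ± 0.54 in POL5551 mice, -3.70 ± 0.39 in 5-day mice, -2.58 ± 0.17 in 2-day mice and -2.79 ± 1.02 in sham mice. The POL5551 arrays were thus highest in the first and lowest in the second. A fit with that level as a term turned the sign of the members' median in each of the 6 comparisons, and its values stand beside them. The off-tissue medians of POL5551 mice overlapped those of no other group, so level and group cannot be told apart in comparisons with POL5551.

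**Figure D1:**
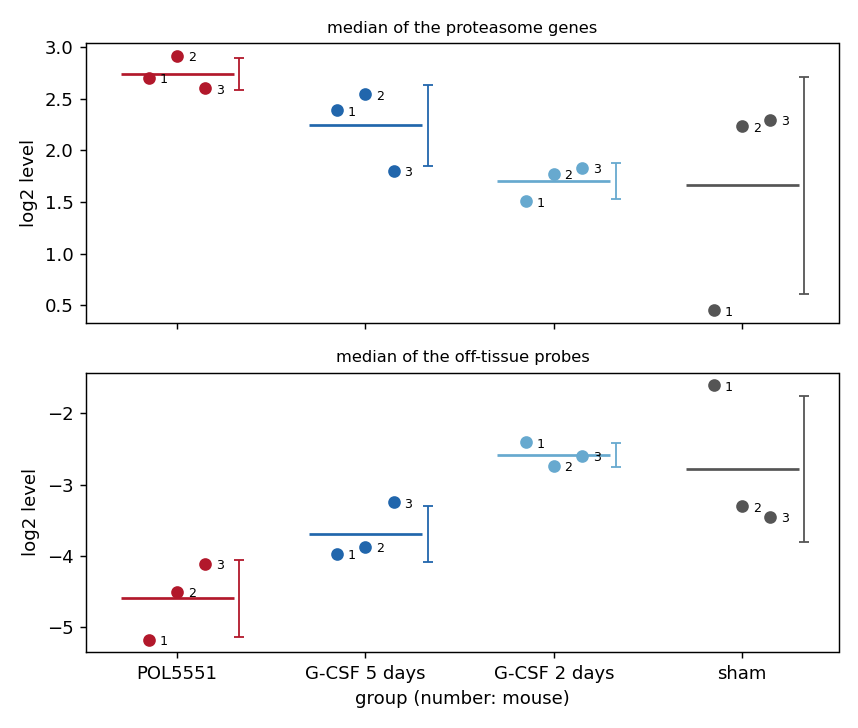
Median log2 level of the 36 proteasome genes (upper panel) and of 1537 probes of off-tissue genes (lower panel) on each array, numbered by mouse, with the group mean (line) and SD (bar, n = 3). The POL5551 arrays are highest for the proteasome genes and lowest for the off-tissue genes, and sham 1 (0.45 and -1.61) is at the other end of both.

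limma called 10 of the 36 genes in 1 of the 6 comparisons, POL5551 against 2 days of G-CSF, and none in the other 5 comparisons or in the F test over the 4 groups. Against 2 days of G-CSF, 9 genes were called higher after POL5551, which is 25% of the members, where 5.87% of all genes were. They are the alpha ring genes Psma3, Psma5, Psma6 and Psma7, the ATPase Psmc6, the base scaffold Psmd1, the lid genes Psmd6 and Psmd14, and the chaperone Psmd10. The chaperone Psmd9 was the 1 gene called lower, where 24.7% of all genes were called lower. The median difference of the members was 0.96, against -0.65 for all genes tested, and 35 of 36 members were positive, against 36.2% of all genes. The brightest probe of all 36 members was designed on a RefSeq mRNA, which many other probes of the array were not. With each probe tested on its own, the 26915 RefSeq probes of the array had a median of 0.28. Of these, 15097 were positive and 2342 were called higher. In 31 members every POL5551 array lay above every 2-day array, where this held for 21.8% of all genes, and in 1 member, Psmd9, every POL5551 array lay below the 2-day arrays, where this held for 43.8%.

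The calls changed with single arrays left out and with the off-tissue level in the fit, as did the calls over all genes. No member was called without POL5551 mouse 1, 2-day mouse 1 or 2-day mouse 3 (11, 9 and 10 at an unadjusted p under 0.05), 1 without POL5551 mouse 2 (Psma6), 2 without 2-day mouse 2 (Psma6 and Psmd10), and 6 without POL5551 mouse 3, 5-day mouse 1 or 5-day mouse 2. Calls over all genes, 10164 with all arrays, also moved widely with each mouse left out, as given at the end. Once the off-tissue level was a term of the fit, limma called 0 members (8 at an unadjusted p under 0.05) and 0 of all genes. The median was then -0.51 and 9 of 36 members were positive. The off-tissue level did not overlap between these groups, so it cannot be told apart from group here.

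**Figure D2:**
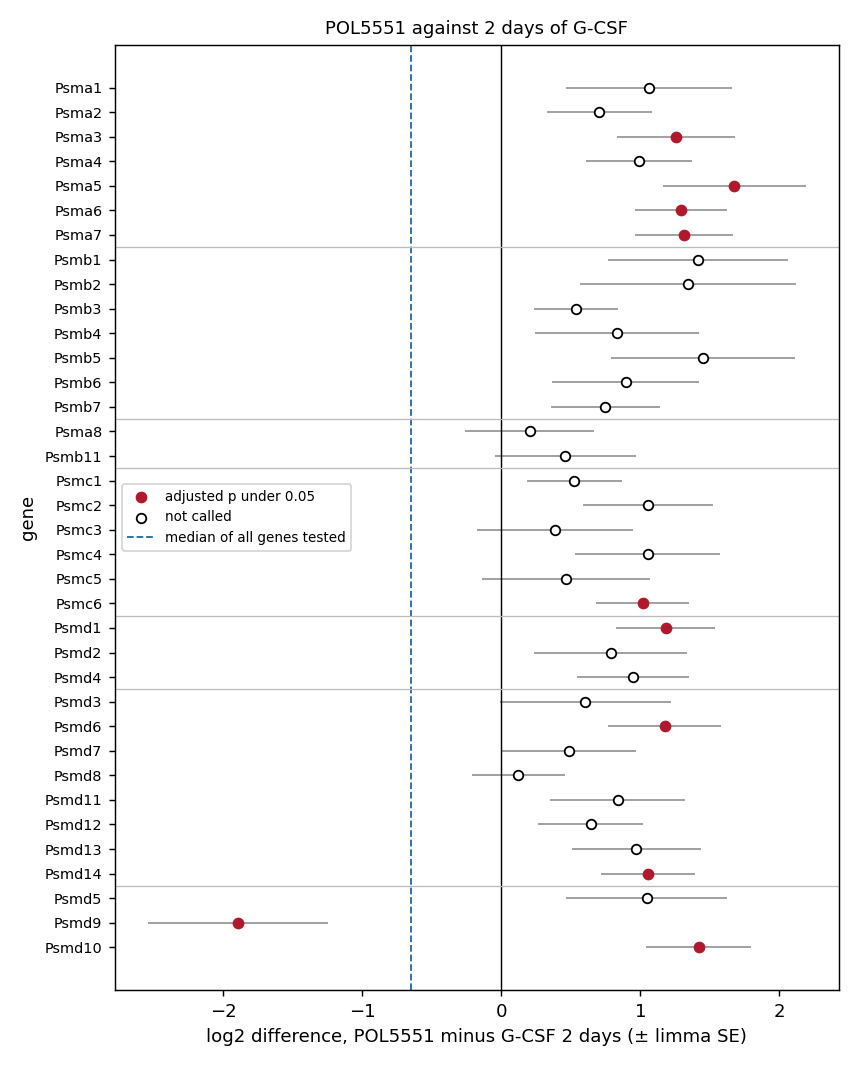
Log2 difference of each proteasome gene, POL5551 minus 2 days of G-CSF, with limma's SE, ordered by class from alpha ring (top) to assembly chaperones (bottom). Filled points passed an adjusted p of 0.05, and the dashed line is the median of all genes tested (-0.65). All RefSeq mRNA probes of the array, the kind plotted here, had a median of 0.28. Of the 36 genes, 35 lie above 0 and Psmd9 lies at -1.89.

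Some of the promoters are shown because the transcription factor NFE2L1, known as the regulator that raises proteasome genes when proteasome activity falls, acts through antioxidant response elements. RefSeq promoter windows of mouse build GRCm38.p6, from 250 bases before to 50 after the start, matched 29 of the 36 genes by symbol, and the first listed window was used where a gene had more. The core of that element, TGACNNNGC, searched on both strands, was in 5 of the 29 windows (17.2%), against 12.4% of 32851 windows of all genes. The CCAAT box was in 12 windows (41.4%, against 37.4%), and CCGGAAG, a sequence that ETS family factors bind, was in 9 (31%, against 8.86%). The 5 windows with the core are printed without the bases after the start, 5′ to 3′ on the gene's strand, with TGACNNNGC and CCGGAAG (or their reverse complements) in capitals. No match of one overlaps a match of the other.
Psmb5, chr14:54617996-54618245, minus strand: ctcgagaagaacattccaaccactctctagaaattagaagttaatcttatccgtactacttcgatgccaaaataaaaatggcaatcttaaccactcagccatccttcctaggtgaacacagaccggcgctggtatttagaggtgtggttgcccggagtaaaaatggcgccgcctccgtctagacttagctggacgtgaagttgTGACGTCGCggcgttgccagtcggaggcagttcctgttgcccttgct
Psmb6, chr11:70525107-70525356, plus strand: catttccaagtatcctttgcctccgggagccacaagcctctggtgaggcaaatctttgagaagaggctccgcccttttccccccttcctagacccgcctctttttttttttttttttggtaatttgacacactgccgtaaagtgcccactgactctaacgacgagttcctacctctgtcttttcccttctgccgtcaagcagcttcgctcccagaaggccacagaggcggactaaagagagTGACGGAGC
Psmc6, chr14:45329574-45329823, plus strand: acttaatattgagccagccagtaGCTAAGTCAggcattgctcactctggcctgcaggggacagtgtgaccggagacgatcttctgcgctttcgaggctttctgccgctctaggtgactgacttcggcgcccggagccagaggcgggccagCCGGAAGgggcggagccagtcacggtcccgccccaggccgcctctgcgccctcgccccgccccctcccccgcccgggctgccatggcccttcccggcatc
Psmd12, chr11:107479278-107479527, plus strand: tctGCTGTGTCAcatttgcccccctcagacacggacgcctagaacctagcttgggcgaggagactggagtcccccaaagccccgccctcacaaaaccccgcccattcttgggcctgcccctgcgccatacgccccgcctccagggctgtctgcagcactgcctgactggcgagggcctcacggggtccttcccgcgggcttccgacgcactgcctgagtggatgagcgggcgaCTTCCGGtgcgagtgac
Psmd9, chr5:123227940-123228189, plus strand: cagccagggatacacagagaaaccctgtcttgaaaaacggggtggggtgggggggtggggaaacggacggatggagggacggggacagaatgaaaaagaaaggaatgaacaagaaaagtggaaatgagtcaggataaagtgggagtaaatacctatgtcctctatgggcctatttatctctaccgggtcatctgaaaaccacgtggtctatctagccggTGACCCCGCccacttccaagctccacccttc

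These 5 genes include the catalytic subunits Psmb5 and Psmb6, the ATPase Psmc6, which was called higher after POL5551 than after 2 days of G-CSF, the lid gene Psmd12, which was not called, and Psmd9, the gene called lower. The windows of the called alpha ring genes Psma3, Psma5, Psma6 and Psma7 held neither the core nor CCGGAAG. A match is a description of the letters and shows no binding.

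The alpha ring genes gave the most calls. Its subunits form the outer rings, whose N-terminal tails close the entrance of the core. All 7 were higher after POL5551 than after 2 days of G-CSF, 4 of them called, with differences from 0.71 to 1.67, and in all 7 the POL5551 and 2-day arrays did not overlap. Psma5 (probe on chromosome 3, 108082754 to 108082813 of mm9, as for all probe positions here) had levels of 1.42, 1.33 and 1.16 in POL5551 mice, 0.82, 0.79 and -0.26 in 5-day G-CSF mice, -0.54, -0.15 and -0.43 in 2-day G-CSF mice, and -1.26, 0.77 and 0.68 in sham mice. Its 3 POL5551 arrays were the highest of the 12, and 5-day mouse 3 lay with the 2-day mice. The difference from 2 days of G-CSF was 1.67 (SE 0.514, limma adjusted p = 0.0346), a 3.19-fold higher signal.

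Psma6 (on chromosome 12, 56519322 to 56519381) had levels of 3.35, 3.23 and 3.21 in POL5551 mice, 2.58, 2.87 and 2.14 in 5-day G-CSF mice, 1.91, 2.02 and 1.98 in 2-day G-CSF mice, and 1.98, 2.73 and 3.07 in sham mice. The POL5551 arrays were above all others, and the spread within the POL5551 and 2-day groups was small, with SDs of 0.0755 and 0.0573. Its difference from 2 days, 1.29 (SE 0.334, limma adjusted p = 0.0217), had the smallest adjusted p of the members, and its F test over the 4 groups had an adjusted p of 0.0976. Psma7 (on chromosome 2, 179771149 to 179771208) was at 2.39, 2.73 and 2.16 in POL5551 mice, 1.88, 2.07 and 1.40 in 5-day G-CSF mice, 1.13, 1.09 and 1.13 in 2-day G-CSF mice, and 0.98, 1.90 and 2.13 in sham mice. The POL5551 mice were all above the 2-day mice, which were close to each other, a difference of 1.31 (SE 0.353, limma adjusted p = 0.0237). Psma3 (on chromosome 12, 72095431 to 72095490) was at 3.45, 3.74 and 3.08 in POL5551 mice, 3.11, 3.30 and 2.40 in 5-day G-CSF mice, 2.00, 2.28 and 2.23 in 2-day G-CSF mice, and 1.59, 2.88 and 3.09 in sham mice. Here sham 3 lay just above POL5551 mouse 3, while every POL5551 mouse lay above every 2-day mouse, by 1.26 (SE 0.421, limma adjusted p = 0.0441) in the means.

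Psma1, which showed the largest alpha ring differences from sham after POL5551 and after 5 days of G-CSF, had levels of 3.55, 3.21 and 3.08 in POL5551 mice, 3.09, 3.05 and 2.28 in 5-day G-CSF mice, 2.22, 2.23 and 2.21 in 2-day G-CSF mice, and 0.10, 2.57 and 2.82 in sham mice. Sham 1 stood far below the other arrays, and the differences of 1.45 (SE 0.597, limma adjusted p = 0.122) for POL5551 and 0.98 (SE 0.597, limma adjusted p = 0.545) for the longer G-CSF course became 0.58 and 0.11 without sham 1. Psma4 was at 2.61, 2.40 and 2.53 in POL5551 mice, 2.47, 2.51 and 1.78 in 5-day G-CSF mice, 1.17, 1.66 and 1.74 in 2-day G-CSF mice, and 0.81, 2.04 and 1.97 in sham mice. For this gene POL5551 mice and 5-day mice 1 and 2 lay close together, and all POL5551 mice lay above the 2-day mice. Psma2, for which sham 1 was low as well, did not pass in any comparison, POL5551 against 2 days giving 0.71 (SE 0.375, limma adjusted p = 0.147).

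None of the 7 beta ring genes was called in any comparison, although all 7 lay higher on every POL5551 array than on every 2-day array, by 0.54 to 1.45. Psmb5, the chymotrypsin-like protease subunit and the main target of proteasome inhibitor drugs, had levels of 3.80, 3.98 and 3.24 in POL5551 mice, 2.92, 3.40 and 2.41 in 5-day G-CSF mice, 1.94, 2.32 and 2.43 in 2-day G-CSF mice, and 0.11, 2.92 and 3.04 in sham mice. The POL5551 arrays overlapped only with 5-day mouse 2, and sham 1 was far below the rest. Psmb5 had the largest member difference between POL5551 and sham, 1.65 (SE 0.662, limma adjusted p = 0.118), which became 0.70 without sham 1. Its difference from 2 days of G-CSF was 1.45 (SE 0.662, limma adjusted p = 0.103).

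Psmb6, the caspase-like subunit, was at 4.30, 4.33 and 3.98 in POL5551 mice, 3.39, 3.92 and 3.41 in 5-day G-CSF mice, 3.17, 3.39 and 3.37 in 2-day G-CSF mice, and 1.41, 3.48 and 3.81 in sham mice. All POL5551 arrays were above all others. The difference from sham was 1.30 (SE 0.526, limma adjusted p = 0.119), and 0.56 without sham 1. Psmb7, the trypsin-like subunit, was at 2.50, 1.67 and 1.97 in POL5551 mice, 2.21, 2.13 and 1.83 in 5-day G-CSF mice, 1.12, 1.28 and 1.49 in 2-day G-CSF mice, and 0.53, 1.31 and 2.03 in sham mice. Its groups after POL5551 and after 5 days had nearly the same mean, and POL5551 mice 2 and 3 lay below sham 3. The difference from 2 days of G-CSF was 0.75 (SE 0.392, limma adjusted p = 0.144).

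Psmb2, a beta ring subunit without protease activity, varied most among the sham mice of all members (SD 1.95). Its levels were 3.66, 2.83 and 3.11 in POL5551 mice, 3.47, 3.18 and 2.02 in 5-day G-CSF mice, 1.90, 1.77 and 1.90 in 2-day G-CSF mice, and -0.51, 2.64 and 3.06 in sham mice. The 2-day mice lay between sham 1 and the rest, and 5-day mouse 3 lay near them. The difference between 5 days and 2 days of G-CSF, 1.04 (SE 0.776, limma adjusted p = 0.473), was the largest of the beta ring. The other non-catalytic genes Psmb1, Psmb3 and Psmb4 had differences from 2 days of G-CSF of 1.41, 0.54 and 0.83 after POL5551, with adjusted p in limma from 0.102 to 0.26.

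The tissue-restricted core genes were not called in any comparison. Psma8, the alpha subunit of the testis proteasome, was above background on all 12 arrays, at -1.46, -2.53 and -2.25 in POL5551 mice, -1.80, -2.04 and -2.55 in 5-day G-CSF mice, -1.70, -2.05 and -3.10 in 2-day G-CSF mice, and -1.74, -0.76 and -1.79 in sham mice. The groups overlapped in each comparison except 5 days of G-CSF against sham, where all G-CSF mice were lower, with a difference of -0.70 (SE 0.463, limma adjusted p = 0.569). Psmb11, the beta subunit of the thymus cortex, was well above background on 2 arrays of POL5551 mice, 2 of 5-day mice, 1 of 2-day mice and 3 of sham mice, at -4.27, -3.43 and -5.16 in POL5551 mice, -4.43, -4.00 and -3.78 in 5-day G-CSF mice, -5.15, -4.65 and -4.44 in 2-day G-CSF mice, and -2.64, -4.28 and -3.67 in sham mice. Its values were near the limit of detection and sham 1 was the highest array. After 2 days of G-CSF it was lower than in every sham mouse, at -1.22 (SE 0.507, limma adjusted p = 0.506).

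In the base of the 19S particle all 9 genes were higher on every POL5551 array than on every 2-day array, and 2 were called. Psmc6 (on chromosome 14, 45966487 to 45968313), 1 of the 6 ATPases that unfold the substrate, whose probe aligns over more genome bases than its own length, as do 17 of the 68 probes, was at 1.19, 1.08 and 0.63 in POL5551 mice, 0.56, 0.89 and 0.32 in 5-day G-CSF mice, 0.02, 0.13 and -0.30 in 2-day G-CSF mice, and -0.39, 0.47 and 0.45 in sham mice. POL5551 mouse 3 lay within the range of the 5-day mice and above all sham mice. The difference from 2 days was 1.02 (SE 0.334, limma adjusted p = 0.0417). Psmc4, the ATPase with the largest difference from sham, was at 2.69, 2.29 and 2.20 in POL5551 mice, 2.03, 2.02 and 1.68 in 5-day G-CSF mice, 1.02, 1.54 and 1.46 in 2-day G-CSF mice, and -0.55, 1.57 and 1.72 in sham mice, and only sham 1 lay below 0. That difference was 1.48 (SE 0.521, limma adjusted p = 0.0953), and 0.75 without sham 1.

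Psmc5 was at 3.23, 3.50 and 3.28 in POL5551 mice, 3.08, 3.24 and 2.80 in 5-day G-CSF mice, 2.57, 3.15 and 2.89 in 2-day G-CSF mice, and 0.35, 3.08 and 3.04 in sham mice. Apart from sham 1, its arrays lay between 2.57 and 3.50. Psmc3 was at 3.86, 4.34 and 3.91 in POL5551 mice, 3.76, 3.80 and 3.61 in 5-day G-CSF mice, 3.31, 3.83 and 3.81 in 2-day G-CSF mice, and 1.44, 3.92 and 3.84 in sham mice, again with sham 1 alone at the low end. Psmc1 was at 3.37, 3.57 and 3.24 in POL5551 mice, 3.08, 2.97 and 2.55 in 5-day G-CSF mice, 2.73, 2.96 and 2.92 in 2-day G-CSF mice, and 2.05, 3.18 and 3.06 in sham mice. Psmc2 was at 3.50, 3.73 and 3.07 in POL5551 mice, 2.86, 3.09 and 2.44 in 5-day G-CSF mice, 2.02, 2.81 and 2.31 in 2-day G-CSF mice, and 1.35, 3.05 and 3.08 in sham mice. The POL5551 arrays of Psmc1 and Psmc2 were all above the 2-day arrays, by 0.53 and 1.06, and for the 6 ATPases the median difference was 0.77.

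Psmd1 (on chromosome 1, 88027281 to 88029323), a large scaffold subunit that binds ubiquitin receptors, was at 2.02, 2.29 and 1.70 in POL5551 mice, 1.74, 1.77 and 0.93 in 5-day G-CSF mice, 0.89, 1.07 and 0.49 in 2-day G-CSF mice, and 0.49, 1.31 and 0.95 in sham mice. POL5551 mouse 3 lay just below 5-day mice 1 and 2, and all POL5551 mice lay above all 2-day and sham mice. The differences were 1.18 (SE 0.354, limma adjusted p = 0.0321) from 2 days of G-CSF and 1.08 (SE 0.354, limma adjusted p = 0.085) from sham, the smallest adjusted p of any member against sham. Psmd2, the other scaffold, was at 2.91, 3.40 and 2.94 in POL5551 mice, 2.61, 2.71 and 2.16 in 5-day G-CSF mice, 2.26, 2.21 and 2.40 in 2-day G-CSF mice, and 0.20, 2.63 and 2.55 in sham mice. Its POL5551 arrays were above all others, but the difference from sham, 1.29 (SE 0.55, limma adjusted p = 0.129), became 0.49 without sham 1. Psmd4, a ubiquitin receptor, was at 1.98, 3.09 and 2.23 in POL5551 mice, 1.78, 2.24 and 1.40 in 5-day G-CSF mice, 1.10, 1.79 and 1.56 in 2-day G-CSF mice, and 0.94, 1.82 and 1.86 in sham mice. POL5551 mouse 2 was the highest array by a wide margin, and the difference from 2 days was 0.95 (SE 0.405, limma adjusted p = 0.086).

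Of the 8 lid genes, 2 were called against 2 days of G-CSF. Psmd14 (on chromosome 2, 61638292 to 61638351), the deubiquitinase that removes the chain from the substrate, was at 2.31, 3.00 and 2.22 in POL5551 mice, 2.00, 2.07 and 1.32 in 5-day G-CSF mice, 1.32, 1.78 and 1.27 in 2-day G-CSF mice, and 2.19, 1.86 and 2.08 in sham mice. It was the member with the least spread among the sham mice (SD 0.17), and sham 1 was not low. The POL5551 mice were above all 2-day mice, by 1.05 (SE 0.335, limma adjusted p = 0.0381). The 2-day mice lay below all sham mice, with a difference of -0.59 (SE 0.335, limma adjusted p = 0.636). Psmd6 (on chromosome 14, 14944699 to 14944758), a structural subunit of the lid, was at 0.69, 1.38 and 0.13 in POL5551 mice, 0.21, -0.07 and -0.70 in 5-day G-CSF mice, -0.74, -0.26 and -0.31 in 2-day G-CSF mice, and -0.57, -0.08 and 0.35 in sham mice. POL5551 mouse 2 was highest and POL5551 mouse 3 lay below sham 3. The difference from 2 days was 1.18 (SE 0.404, limma adjusted p = 0.0474).

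Psmd6, Psmd3, Psmd8, Psmd11, Psmd12 and Psmd13 have a PCI domain and form the lid's horseshoe scaffold. Psmd3 was at 3.21, 3.79 and 2.85 in POL5551 mice, 2.94, 2.84 and 2.23 in 5-day G-CSF mice, 2.42, 2.91 and 2.69 in 2-day G-CSF mice, and 0.01, 2.65 and 2.59 in sham mice. Sham 1 was nearly 0 and the other arrays lay between 2.23 and 3.79, so its lid-leading differences from sham, 1.53 after POL5551, 0.92 after 5 days and 0.93 after 2 days, became 0.66, 0.05 and 0.06 without it. Psmd7, the inactive partner of Psmd14, was at 3.44, 3.12 and 3.08 in POL5551 mice, 3.03, 3.06 and 2.38 in 5-day G-CSF mice, 2.44, 2.70 and 3.04 in 2-day G-CSF mice, and 0.84, 2.93 and 2.54 in sham mice. Psmd11 was at 1.86, 1.07 and 1.66 in POL5551 mice, 1.19, 1.03 and 0.97 in 5-day G-CSF mice, 0.96, 0.45 and 0.67 in 2-day G-CSF mice, and -1.01, 0.49 and 1.21 in sham mice. For Psmd7 and Psmd11 sham 1 was again the lowest array, and the POL5551 mice were above the 2-day mice.

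Psmd13 was at 1.68, 2.37 and 1.73 in POL5551 mice, 1.01, 1.24 and 0.15 in 5-day G-CSF mice, 0.90, 0.93 and 1.04 in 2-day G-CSF mice, and -0.27, 1.34 and 1.29 in sham mice. Of all members it had the largest difference between POL5551 and 5 days of G-CSF, 1.13 (SE 0.462, limma adjusted p = 0.417), with no overlap. Psmd8 gave the smallest differences of the lid, 0.09 between POL5551 and sham and 0.12 between POL5551 and 2 days, with overlap in both. Psmd12 lay 0.65 higher after POL5551 than after 2 days (limma adjusted p = 0.181).

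Of the 3 chaperones that help assemble the base, 2 were called against 2 days of G-CSF, in opposite directions. Psmd10 (on chromosome X, 137483484 to 137483543), also known as gankyrin, was at 0.93, 1.51 and 0.68 in POL5551 mice, 0.39, 0.97 and -0.26 in 5-day G-CSF mice, -0.57, -0.16 and -0.40 in 2-day G-CSF mice, and 0.07, 0.68 and 0.32 in sham mice. All POL5551 mice were above all 2-day mice, and the difference was 1.42 (SE 0.374, limma adjusted p = 0.0227). The 2-day mice were below all sham mice, with a difference of -0.73 (limma adjusted p = 0.587), and sham 1 lay near sham 3. Psmd9 (on chromosome 5, 123691881 to 123691940) was at -0.35, -0.43 and -0.27 in POL5551 mice, 0.80, -0.47 and 0.32 in 5-day G-CSF mice, 0.85 and 2.24 in 2-day G-CSF mice (mice 2 and 3), and 1.98, -0.17 and 0.62 in sham mice. The spot of 2-day mouse 1 was marked as an outlier and left out, and Psmd9 was well above background on all 11 arrays with a value. POL5551 lay below both 2-day mice, with a difference of -1.89 (SE 0.646, limma adjusted p = 0.0489), and sham 1 was near the top. Psmd5 did not pass, at 1.05 (SE 0.581, limma adjusted p = 0.163) for POL5551 against 2 days.

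**Figure D3:**
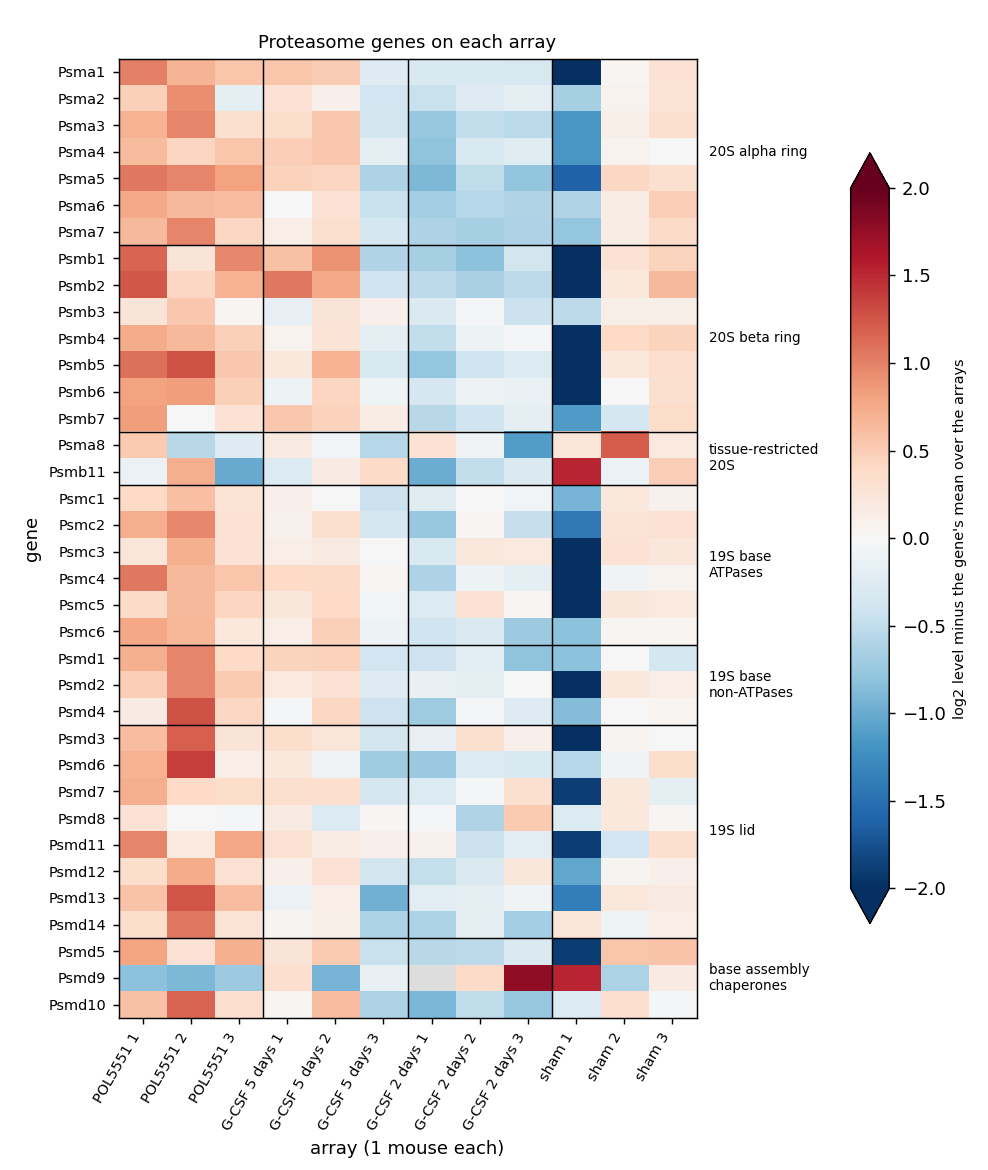
Log2 level of each of the 36 proteasome genes on each of the 12 arrays, relative to the gene's own mean over the arrays (red above, blue below, grey not measured), ordered by class. The POL5551 columns are mostly red, the 2-day G-CSF columns mostly pale blue, and sham 1 is the lowest array for 28 of the 35 genes with a value on every array.

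Against sham, POL5551 gave no called member where limma called 2.29% of all genes, and 14 members, all higher, had an unadjusted p under 0.05, as did 8.34% of all genes in that direction. The median difference of the members was 0.91, against -0.52 for all genes, and 33 of 36 were positive. In 20 of them the POL5551 arrays lay above all sham arrays, where this held for 10.6% of all genes. With each probe tested on its own, the 26915 RefSeq probes had a median of 0.21, and 15008 of them were positive. The 3 negative members were Psma8, Psmb11 and Psmd9. Part of this rests on sham 1, which lay below both other sham arrays for 32 of the 36 members (29.9% of all genes), with a median difference of -1.30, whereas over all genes its median difference from the other shams was 0.58. Without sham 1 the median of the members was 0.43, with 32 of 36 positive and 2 at an unadjusted p under 0.05, while all genes had a median of -0.26. Psmd1 was then 0.87 higher after POL5551 and Psma5 0.58. Within slide 1, with sham 1 and POL5551 mouse 1, the median was 1.91, and within slide 2, with shams 2 and 3 and POL5551 mouse 2, it was 0.58. With the off-tissue covariate it was -0.39, with 6 of 36 positive.

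After G-CSF no member passed against sham. After 5 days against sham, 0 members were called by limma (0 at an unadjusted p under 0.05; 0.0662% of all genes called). The median was 0.40, against -0.13 for all genes and 0.08 for RefSeq probes, and 29 of 36 were positive. In 0 members the 5-day arrays lay above all sham arrays, against 4.41% of all genes. Without sham 1 the median was -0.08 and 10 of 36 were positive. With slide as a fixed block it was 1.18, and with the off-tissue covariate -0.22. No slide held both 5-day and sham mice, so the 1.18 came indirectly, through POL5551 mice and 5-day mouse 2 on slide 5. After 2 days against sham, again 0 were called by limma (1 at an unadjusted p under 0.05, Psmb11; 0.0331% of all genes called). The median was -0.04, against 0.10 for all genes and 0.03 for RefSeq probes, and 17 of 36 were positive. In 0 members the 2-day arrays lay above all sham arrays, against 6.76% of all genes. With the off-tissue covariate the median was 0.08, with 23 of 36 positive and 7 at an unadjusted p under 0.05. In a fit of all groups with mouse number as a replicate block, 6 genes were called in all, against 11 without the block, and again 0 members, the smallest adjusted p in limma being 0.49.

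The direction at 2 days depended on sham 1 too. Without it the median became -0.47, with 2 of 36 members positive and 9 at an unadjusted p under 0.05, while all genes had a median of 0.21. No member passed then either, the smallest adjusted p in limma being 0.107. Psma5 was at -1.10, Psma6 at -0.93 and Psmd10 at -0.88 without sham 1.

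**Figure D4:**
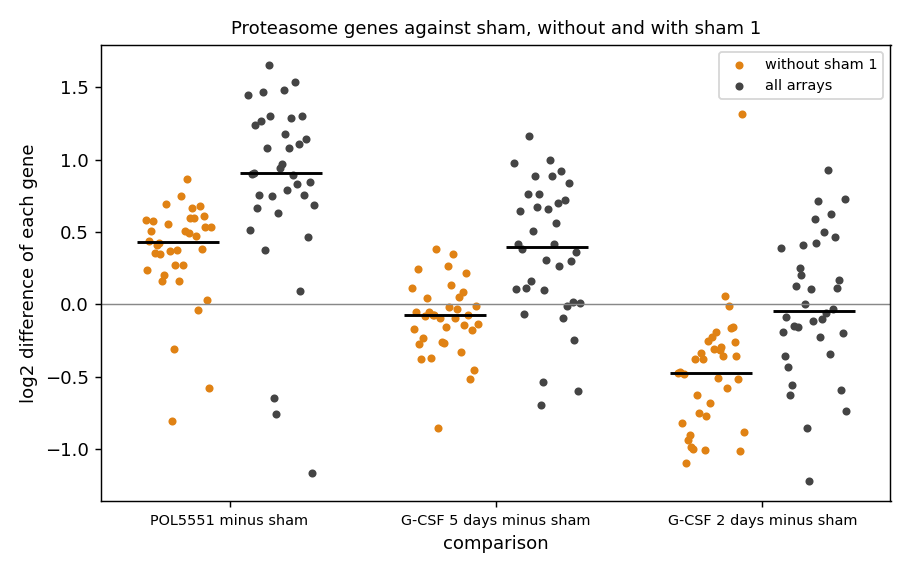
Log2 difference of each of the 36 proteasome genes from sham (points) and their median (line), computed without sham 1 (left of each pair) and with all arrays (right). The medians are 0.43 and 0.91 for POL5551, -0.08 and 0.40 for 5 days of G-CSF, and -0.47 and -0.04 for 2 days.

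Between the G-CSF groups, 32 of the 36 members were higher at 5 than at 2 days. The median of the members was 0.36, against -0.27 for all genes and 0.13 for RefSeq probes. limma called 0% of all genes and 0 members in this comparison, with 0 members at an unadjusted p under 0.05 (16.2% of all genes). Without sham 1 in the pooled spread, 11 members were under that p (8893 of 33212 genes). limma then still called 0 members, with 3 genes called higher and 11 lower. In 12 members the 5-day arrays were all above the 2-day arrays, where this held for 11.7% of all genes. Of these 12, 5 were alpha ring genes. In 5-day mouse 3, many members were near the 2-day level, as for Psma5 and Psmd6, and its off-tissue median was also the highest of its group, -3.25. With the off-tissue covariate the median was -0.43, and without 5-day mouse 3 it was 0.53.

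POL5551 against 5 days of G-CSF gave 0 called members in limma, where 0.0602% of all genes were called, and 2 members had an unadjusted p under 0.05, Psmd13 and Psmd6 (1.13 and 0.93). Without sham 1 in the pooled spread, 11 members were under that p (6924 of 33212 genes) and 0 were called. The median was 0.49, against -0.28 for all genes and 0.07 for RefSeq probes, and 33 of 36 were positive. In 13 members the POL5551 arrays lay above all 5-day arrays, against 10.3% of all genes. Within slide 5, which held POL5551 mouse 3 and 5-day mouse 2, the median was 0.04, with 23 of 36 positive. With the off-tissue covariate it was -0.14, with 11 of 36 positive. In the F test over the 4 groups limma called 0 members, 6 having an unadjusted p under 0.05, where 1.35% of all genes were called. The comparisons share groups, so their values are not independent.

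POL5551 and 2-day mice were the groups with the least spread. The median SD of a member was 0.29 in POL5551 mice, 0.38 in 5-day mice, 0.25 in 2-day mice and 0.87 in sham mice, and limma pools the spread over all groups. Without sham 1, 23 members were called higher after POL5551 than after 2 days, where 16.7% of all genes were, and 1 lower, where 35.9% were. The 23 were 6 alpha ring, 5 beta ring and 3 ATPase genes, Psmd1, Psmd2 and Psmd4, 4 lid genes and 2 chaperones, among them the beta ring genes Psmb1, Psmb2, Psmb4, Psmb5 and Psmb6. The difference of Psmb5 was 1.45 with an adjusted p of 0.00736 in limma. All 2-day mice were on slide 3 and no other group was, so slide and group cannot be told apart for any comparison with them.

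Probes of one gene could go opposite ways. Of the 67 member probes tested, 57 were designed on RefSeq mRNAs and 10 on other transcripts, such as Ensembl models and cDNA clones carrying the same gene name. For POL5551 against 2 days, with each of 49466 probes tested on its own, 55 of the 57 RefSeq probes were positive with a median of 1.04, 10 were called higher (5.66% of all probes), and 0 lower. Of the 10 other probes, 7 were negative with a median of -0.60, 3 were called lower (17.8% of all probes) and 0 higher. Over the whole array, 2342 of 26915 RefSeq probes were called higher and 5446 of 22551 others lower, with medians of 0.28 and -0.89.

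For Psma3 the probe of an Ensembl model on chromosome 12, 72080515 to 72080574, lies 14857 bases from its RefSeq probe, and had levels of -0.18, 0.37 and 0.24 after POL5551 and 2.02 and 2.91 after 2 days of G-CSF (mouse 1 left out as an outlier spot). Its difference was -2.32 (SE 0.457, limma adjusted p = 0.017), against 1.26 for the RefSeq probe. For Psmb2 the probe of a cDNA clone on chromosome 4, 126362768 to 126362827, lies between the ends of a RefSeq probe whose 60 bases align over 126361456 to 126364299, and was at -1.29, -0.78 and -0.69 after POL5551 and 0.69, 0.39 and 0.35 after 2 days of G-CSF, a difference of -1.40 (SE 0.384, limma adjusted p = 0.0301). The groups did not overlap for either probe, in the direction opposite to the RefSeq probes of the same genes.

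Psmd14 had a clone probe 84128 bases from its RefSeq probe, with levels of -3.14, -2.29 and -3.10 after POL5551 and -1.27, -2.26 and -1.12 after 2 days of G-CSF and a difference of -1.29 (SE 0.423, limma adjusted p = 0.0477), and Psmc2 an Ensembl probe at -1.29 (SE 0.433, limma adjusted p = 0.0516). An Ensembl probe of Psmd1, 63104 bases from the RefSeq one, was at -0.79 (SE 0.386, limma adjusted p = 0.133). The clone probe of Psmc1, which overlaps the RefSeq probe by 45 bases, was at 0.76 (SE 0.39, limma adjusted p = 0.148), and that of Psmc6, 817 bases away, at 1.20 (SE 0.453, limma adjusted p = 0.0702), both in the direction of the RefSeq probe. The other probes of Psmd3, Psmd4 and Psmd7 were at -0.41, 0.04 and -0.03 and not called. No exon annotation of mm9 was used, so whether the opposite probes lie in introns was not tested.

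**Figure D5:**
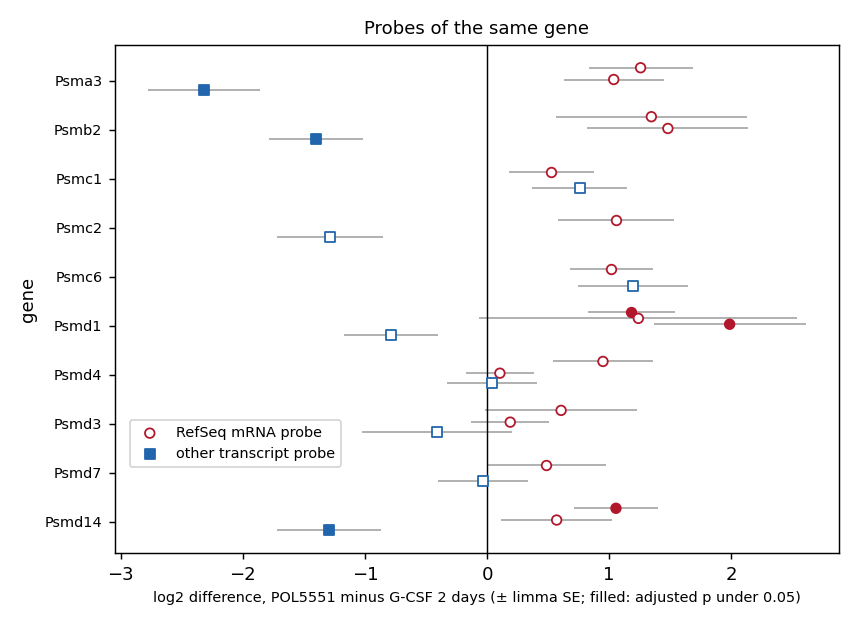
Log2 difference, POL5551 minus 2 days of G-CSF, with limma's SE, for each tested probe of the 10 proteasome genes that have a probe of another transcript (squares) beside RefSeq mRNA probes (circles); filled symbols passed an adjusted p of 0.05 over 49466 probes. The squares of Psma3, Psmb2 and Psmd14 are called lower while the circles of these genes lie above 0.

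Genes that work with the proteasome were mostly higher after POL5551 too. Of 37 such genes with a tested probe, 7 were called higher after POL5551 than after 2 days of G-CSF (5.87% of all genes were). In that comparison 0 were called lower, 33 were positive and the median was 0.97. Of the 3 immunoproteasome genes, which replace the catalytic beta subunits in immune cells, Psmb9 was 1.01 higher than after 2 days (SE 0.325, limma adjusted p = 0.0393). Its levels were 3.31, 2.97 and 2.77 in POL5551 mice, 2.34, 2.39 and 2.07 in 5-day G-CSF mice, 1.80, 2.13 and 2.07 in 2-day G-CSF mice, and 1.54, 2.31 and 2.55 in sham mice. All POL5551 arrays of Psmb9 were above all others. Psmb8, at 3.97, 3.68 and 3.54 in POL5551 mice, 2.84, 3.26 and 2.49 in 5-day G-CSF mice, 1.94, 1.94 and 2.60 in 2-day G-CSF mice, and -1.51, 2.83 and 3.02 in sham mice, did not pass, with a difference of 1.57 (SE 0.937, limma adjusted p = 0.188) and sham 1 far below every other array.

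The differences that follow are POL5551 against 2 days of G-CSF. Of 5 assembly factors of the core, Psmg1 was higher by 1.17 (SE 0.338, limma adjusted p = 0.0292) and Psmg4 by 1.90 (SE 0.583, limma adjusted p = 0.0347), while Psmg3 was at 1.59 (SE 1.03, limma adjusted p = 0.221). The shuttle factors Ubqln1 and Ubqln2, which carry ubiquitinated proteins to the proteasome, were higher by 1.11 (SE 0.371, limma adjusted p = 0.0436) and 1.30 (SE 0.397, limma adjusted p = 0.034). Of 4 genes that regulate proteasome gene transcription, Ngly1, the glycanase that helps activate NFE2L1, was higher by 1.12 (SE 0.351, limma adjusted p = 0.0364), and Nfe2l1, named for the promoter motif with its value known, was at 0.89 (SE 0.357, limma adjusted p = 0.0731). The ubiquitin-activating enzyme Uba6 was 1.11 higher than after 2 days (SE 0.275, limma adjusted p = 0.0202). Its means were 0.87 in POL5551 mice, 0.40 in 5-day mice, -0.24 in 2-day mice and 0.67 in sham mice. The 2-day mice were thus the low group, and POL5551 lay close to sham. None of 4 activator and inhibitor genes, 2 further 19S genes or 3 genes of the p97 segregase passed in limma (0, 1 and 1 at an unadjusted p under 0.05). The inhibitor Psmf1 was at 1.56 (SE 0.991, limma adjusted p = 0.213). In the other 5 comparisons limma called 0 of the 37, with 9 at an unadjusted p under 0.05 for POL5551 against sham and 1 or 2 in each of the others.

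Several marker lists differed between the groups as well. The mean level of 9 proliferation genes ran from 0.51 to 0.93 after POL5551, 0.00 to 0.47 after the 5-day course of G-CSF, -0.01 to 0.36 after the 2-day course and -0.56 to -0.04 in sham mice. That of 8 stromal genes ran from 0.45 to 1.81 after POL5551, 0.14 to 1.61 after the 5-day course, -0.80 to 1.42 after the 2-day course and -1.20 to -0.68 in sham mice. That of 5 megakaryocyte genes ran from -0.16 to 0.34 after POL5551, -0.37 to -0.13 after the 5-day course, -1.28 to -0.70 after the 2-day course and -2.50 to -0.34 in sham mice. Every tested gene of these 3 lists was well above background on at least 2 arrays of each group, except the megakaryocyte gene Gp1ba, on 0 sham arrays. The neutrophil list overlapped between the groups, at -1.35 to -0.11 after POL5551 and -2.28 to -0.55 in sham mice. The mean level of 6 B cell genes ran from -1.73 to -1.28 after POL5551, -1.52 to -0.83 after the 5-day course, -1.16 to -0.99 after the 2-day course and -1.79 to -1.30 in sham mice, so that it was lower after POL5551 than after 2 days without overlap. That of 4 T and NK cell genes ran from -1.29 to -0.763 after POL5551 and -0.764 to -0.28 after the 2-day course, which overlap at their ends. Not all genes of a list went the same way. Higher after POL5551 than after 2 days were 7 of the 9 proliferation, 6 of the 8 stromal and 3 of the 5 megakaryocyte genes. Lower were Top2a and Aurkb, Bglap and Kitl, and Gp1bb and Itga2b of these lists. The stromal mean of the 2-day mice was -0.80, -0.58 and 1.42, high in mouse 3 alone. Of the B cell genes 2 of 6, and of the T and NK cell genes 1 of 4, were higher after POL5551 than after 2 days. Cd79b was at 2.62, 3.11 and 2.64 after POL5551 and 1.48, 2.12 and 1.63 after 2 days, and Nkg7 at 2.99, 3.18 and 2.51 and at 1.64, 1.77 and 1.65. The 7 sort genes named above had means of 1.08, 0.83 and 1.09 in POL5551 mice, 0.90, 0.68 and 0.34 in 5-day mice, 0.08, 0.45 and 0.39 in 2-day mice, and -0.34, 0.98 and 0.71 in sham mice, with sham 1 lowest. The part of these lists in the result was not tested.

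The split of all calls between POL5551 and 2 days of G-CSF depended on the scaling. Of the calls, 19.2% were higher with the 75th percentile, 30.8% with quantile normalization, 34.3% with normexp and quantile normalization, 49.0% with median scaling and 30.9% with the authors' values. The median of all genes was then -0.65, -0.25, -0.15, -0.20 and -0.25, and that of the members 0.96, 0.87, 0.82, 1.41 and 0.89. Under each of these 5 scalings at least 35 members were positive, and the number called was 10, 4, 6, 11 and 5. Psma3, Psma6, Psma7 and Psmd10 were called under all 5.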

How the data were processed

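RNA of sorted stem cells, labelled with Cy5, was hybridised to 1-colour arrays. Per the file headers, the authors extracted the deposited intensities with Agilent Feature Extraction 11.5.1.1, which subtracted background and detrended each array, without normalization between arrays. From the processed intensities, log2 minus each array's 75th percentile was taken, control spots and outlier spots were left out, and probes well above background on at least 3 of 12 arrays were kept. A gene was its brightest such probe, and 33 genes with under 2 values in a group were dropped. limma 3.58.1 in R 4.3.3 fitted the 4 groups together, with Benjamini-Hochberg adjustment over 33212 genes, after a test on simulated data. An exact test of 3 against 3 mice cannot go below 0.1, so none was used.

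Values in every sample were given for called members, catalytic subunits, the largest differences of each class from sham and between the G-CSF courses, and members with disagreeing or dim probes. The members and lists were chosen with earlier results of these data known. Alternatives were other scalings, the deposited table, which has the same median of 1080 on every array and an unstated normalization, filters, probe rules, slide and replicate blocks, an off-tissue covariate and each mouse left out. Treating each probe as its own feature, and the percentile over spots, were added after seeing the data. The correlation of deviations from the group means was 0.15 to 0.25 in the 3 same-numbered pairs of 2-day and sham arrays and -0.18 to 0.01 in the 6 others. Over all 18 same-numbered pairs it was -0.31 to 0.26. Differently numbered arrays reached 0.43 (sham 1 and 5-day mouse 3), and the labels name no pairing, so a pairing was not established. The sort genes were summarised over the 7 named, and 1 further gene of that list is not reported here.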

Additional observations from a re-analysis of the deposited data

How the results depend on the processing

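Against 2 days of G-CSF, limma called 10 proteasome genes after POL5551; the count was 4 with quantile normalization, 6 with normexp and quantile normalization, 5 with the authors' deposited values, 6 with the mean over a gene's probes, 22 with only the 2 groups fitted, 0 with the off-tissue covariate, and 0 to 24 with each mouse left out. It was 0 to 3 against sham (3 without sham 3: Psmb6, Psmc4 and Psmd11) and 0 to 4 in the F test with each mouse left out, and 0 in the other comparisons.

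With the off-tissue covariate the median proteasome difference was -0.39 for POL5551 and -0.22 for 5 days of G-CSF against sham, -0.43 for 5 against 2 days, and -0.51 and -0.14 for POL5551 against 2 and 5 days. Psma3 and Psma5 were then at -0.21 and -0.32 for POL5551 against 2 days. The cause was not tested. Slide as a fixed block gave 1.18 for 5 days against sham, which share no slide and are linked only through POL5551 mice. Slide 1 alone gave 1.91 for POL5551 against sham. With each mouse left out the median ran from 0.43 to 1.17 for POL5551, -0.08 to 0.67 for 5 days and -0.47 to 0.24 for 2 days against sham, 0.26 to 0.53 for 5 against 2 days, 0.84 to 1.01 for POL5551 against 2 days, and 0.26 to 0.63 against 5 days.

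Counts over all genes moved more. POL5551 against sham (759) gave 90 with quantile normalization, 30 with normexp, 215 with median scaling, 62 with the authors' values, 2027 with probes above background on all 12 arrays, 0 with the covariate, 63 with only the 2 groups, and 60 to 4687 with each mouse left out. POL5551 against 2 days (10164) gave 5914 with quantile normalization, 6036 with the authors' values, 0 with the covariate, 16887 with only the 2 groups, and 90 to 17453 with each mouse left out. POL5551 against 5 days (20) gave 5 with normexp, 8 with the authors' values, 5 with all 12 arrays, 0 with slide as a fixed block (20 as a random block) or with the covariate, 60 with only the 2 groups, and 0 to 91. For 5 days against sham (22) it was 12 with all 12 arrays, 35 with the mean over probes, 36 with each probe, 0 with slide as a fixed block (19 as a random block), 1 with only the 2 groups, and 1 to 55. For 2 days against sham (11) it was 6 with normexp, 5 with all 12 arrays, 17 with the covariate, 0 with only the 2 groups, and 2 to 167. For 5 against 2 days (0) it was 3 with quantile normalization, 7 with only the 2 groups, and 0 to 14. The F test (447) gave 110 with quantile normalization, 218 with median scaling, 73 with the authors' values, 3504 with all 12 arrays, 23 with the covariate, and 55 to 7668.

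With the replicate block, 181 genes were called for POL5551, 14 for 5 days and 6 for 2 days against sham, 6 for POL5551 against 5 days, and 7 proteasome genes for POL5551 against 2 days. Slide as a fixed block could not be fitted for comparisons with the 2-day mice. As a random block it left 8 proteasome genes called for POL5551 against 2 days, without Psmd6 and Psmd9. Precision is limited by 3 arrays a group, and Psmb11 was not well above background on some arrays.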
